A study of Mus musculus with 48 samples.

Results

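The MHC class II and costimulation genes described here were chosen by symbol: H2-Aa, H2-Ab1, H2-Eb1, H2-DMa, H2-DMb1, Cd74, Ciita, Cd40, Cd80 and Cd86, which are 10 of the 54735 genes in the count files. All 10 passed the filter on low counts, as did 17080 genes in all. They were followed through 48 bulk RNA-seq libraries of Kupffer cells (KCs), macrophages that reside in the liver sinusoids, from male C57BL/6 mice. The labels name no transgene or deleted allele. Acetaminophen (APAP), which injures hepatocytes when overdosed, had been given in 11 groups of 4 libraries. In 2 of them the cells are labelled LAM-like KCs, for lipid-associated macrophage, at 36 and 48 h, and in 9 of them KCs at 6, 12, 24, 36, 48, 72, 96, 120 and 168 h. The controls were KCs from mice given PBS, with 2 libraries at 0 h and 2 at 24 h. How LAM-like KCs were told from KCs is not stated in the titles, and the labels do not say whether replicates were separate animals, so p-values measure the spread between these libraries.

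MHC class II molecules show peptides from taken-up protein to CD4+ T cells. They are dimers of an alpha chain and a beta chain. H2-Aa and H2-Ab1 encode the alpha and the beta chain of the same isotype. H2-Eb1 encodes a beta chain of the second isotype, whose alpha chain gene is not among the genes followed here. Whether the product of H2-Eb1 forms a dimer in these cells was not tested. Class II molecules are escorted to the endosome by the invariant chain (Cd74). The chaperone H2-DM (H2-DMa with H2-DMb1) then exchanges the invariant chain fragment for peptide. CIITA, the product of Ciita, is the coactivator that switches these genes on. It binds no DNA itself and is held at the promoter by proteins on the X and Y boxes. CD80 and CD86 give T cells the second signal through CD28, and CD40 receives the signal of CD40 ligand on T cells. In Kupffer cells these genes are known for presentation in a tissue that leans towards tolerance.

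The promoters of H2-Aa, H2-Eb1 and H2-DMb1 are shown because they hold the letters of the X box and the Y box, through which CIITA acts. The windows are from RefSeq on GRCm38.p6 and run from 250 bases before the annotated start to 50 after it. The table held a window for 5 of the 10 genes: H2-Aa, H2-Eb1, H2-DMb1, H2-DMa and Cd80. Capitals mark CTNGNAACT, a form of the X box, and TGATTGG, a Y box core holding the inverted CCAAT. The letters of the X box were written down after these sequences had been read.
H2-Aa, chr17:34287774-34288073, minus strand: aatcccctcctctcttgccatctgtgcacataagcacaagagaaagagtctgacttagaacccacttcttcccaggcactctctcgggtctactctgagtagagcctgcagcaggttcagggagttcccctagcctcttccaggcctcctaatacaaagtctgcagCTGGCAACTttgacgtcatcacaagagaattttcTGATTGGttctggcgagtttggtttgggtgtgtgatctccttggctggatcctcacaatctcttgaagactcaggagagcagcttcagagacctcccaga
H2-Eb1, chr17:34305617-34305916, plus strand: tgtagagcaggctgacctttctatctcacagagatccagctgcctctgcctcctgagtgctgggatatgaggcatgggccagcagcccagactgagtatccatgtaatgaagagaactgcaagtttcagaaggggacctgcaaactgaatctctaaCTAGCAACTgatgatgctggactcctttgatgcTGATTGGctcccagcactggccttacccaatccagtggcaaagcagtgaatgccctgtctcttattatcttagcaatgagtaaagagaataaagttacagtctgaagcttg
H2-DMb1, chr17:34152941-34153240, plus strand: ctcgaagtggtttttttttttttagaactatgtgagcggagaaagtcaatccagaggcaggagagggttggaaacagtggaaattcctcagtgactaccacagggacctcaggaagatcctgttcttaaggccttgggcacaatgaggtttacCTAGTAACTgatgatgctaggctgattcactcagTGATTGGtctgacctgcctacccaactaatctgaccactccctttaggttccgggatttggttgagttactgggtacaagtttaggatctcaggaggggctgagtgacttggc

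In all 3 windows the X box came first on the gene's own strand and the Y box followed, with 25 bases between them in H2-Aa, 24 in H2-Eb1 and 25 in H2-DMb1. The X box of H2-Aa ended at position -76 and its Y box at -44, counted from the start of the gene. Neither run of letters was found on either strand in the 2 windows of H2-DMa or in that of Cd80. The windows of H2-DMa (chr17:34122582-34122881 and chr17:34125268-34125567) and Cd80 (chr16:38458683-38458982) lie inside the annotated spans of these genes. Any other start of H2-DMa or Cd80 had no window and was not searched, and which start these cells use was not tested. Among 32851 RefSeq promoter windows of the same length searched on both strands, 4.1% held the X box letters, 7.82% the Y box core, and 0.35% held both. Because the X box letters were written down after the 3 windows had been read, these shares are no test of the matches.

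**Figure D1:**
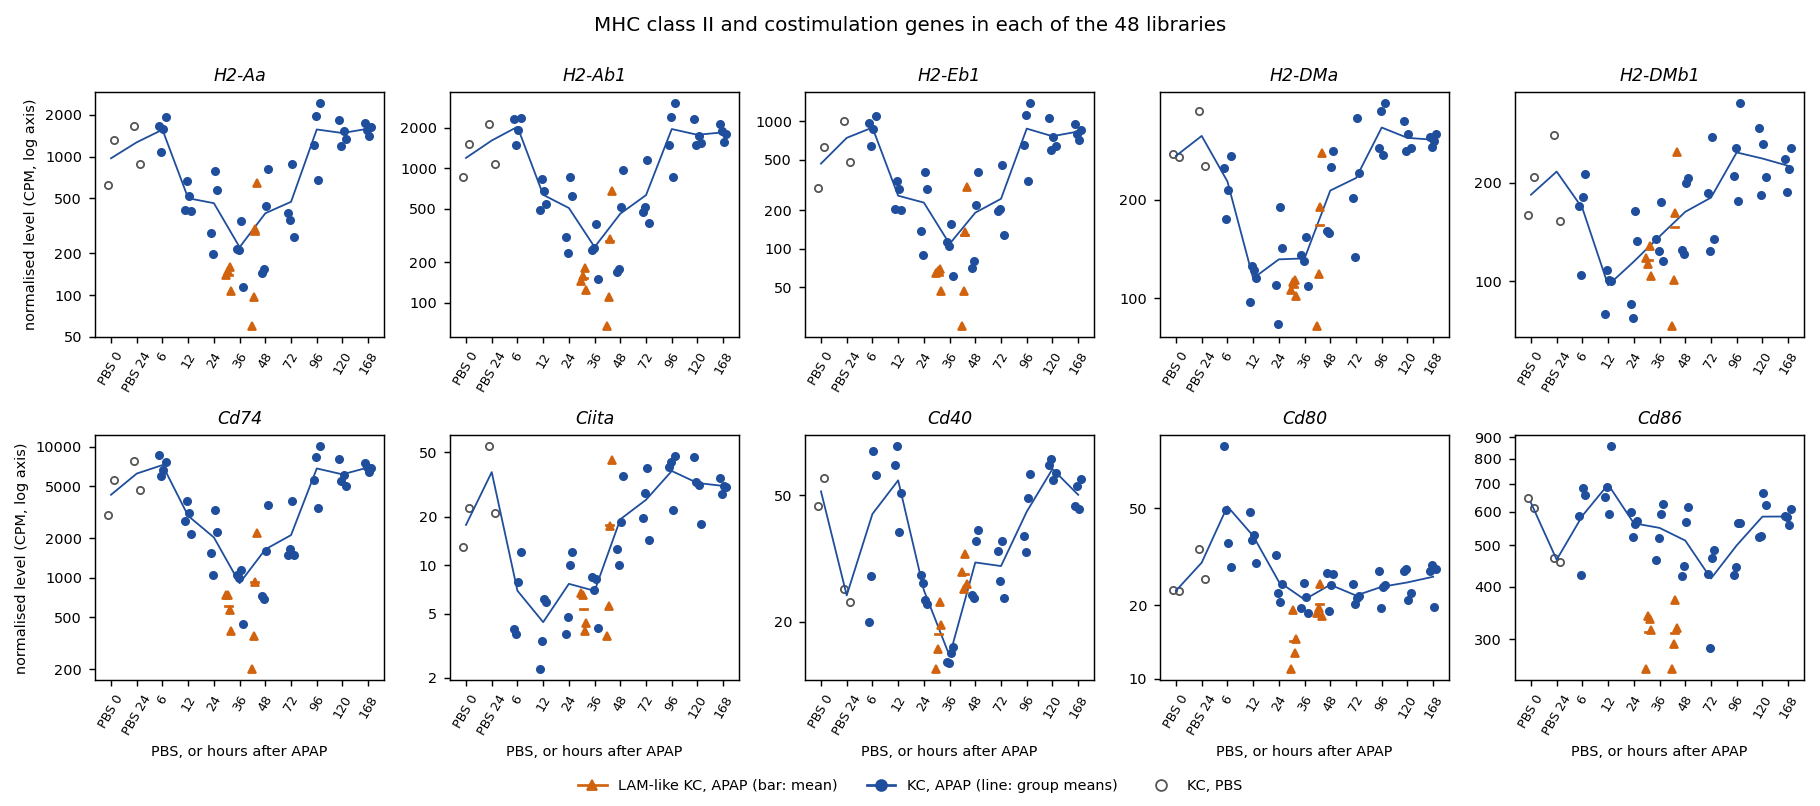
Normalised level in each of the 48 libraries (y axis, CPM, log axis) against PBS or hours after APAP (x axis), 1 panel per gene; points are libraries, the line joins group means of KCs, and triangles with a bar for their mean are LAM-like KCs, drawn left of the KCs of the same time. H2-Aa, H2-Ab1, H2-Eb1 and Cd74 are high at 6 h, lowest of the KC times by group mean at 36 h and high again from 96 h, and Cd86 is lower in LAM-like KCs than in KCs of the same time.

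Levels are given in CPM, the read count scaled to a common library size after TMM normalisation. Per kilobase of annotated exon, Cd74 was the most abundant of the 10 in the 4 PBS libraries, with 3137 ± 1191 CPM per kb (SD, n = 4). H2-Ab1 followed with 546 ± 219.7, H2-Eb1 with 309.9 ± 152 and H2-Aa with 295 ± 121 CPM per kb. Ciita was the least abundant, with 2.91 ± 1.92 CPM per kb, and Cd80 and Cd40 were next, with 7.14 ± 1.42 and 11.1 ± 4.78 CPM per kb. Cd86, with 149 ± 26.7 CPM per kb, was thus the most abundant of the costimulation genes.

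Library totals ranged from 15885336 to 26058698 counts. Summed markers of Kupffer cell identity, 10 genes such as Clec4f, Cd5l and Vsig4, ranged from 16207 to 21283 CPM in LAM-like KC libraries, against 21610 to 39267 CPM in KC libraries. Summed lipid-associated macrophage markers were 4967 to 7031 CPM in LAM-like KCs against 1956 to 2596 CPM in KCs at 36 h. At 48 h they were 3877 to 6092 CPM against 1744 to 2337 CPM, while KCs at 12 h held 5065 to 7129.7 CPM. Lpl made up most of this sum, with 2246 CPM of 3286 CPM on average over the 48 libraries. Cd36 gave 711 CPM, Gpnmb 134 CPM and Trem2 95.5 CPM. The files' headers number the libraries 1 to 48 in a sequence that passes through the groups once up to 25 and then begins again. The APAP groups have libraries in both runs, but the PBS 24 h pair stands wholly in the first and the PBS 0 h pair in the second. What this numbering records is not given in the sources used here, so values within each run are printed beside the main differences.

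By mean over the 4 libraries of a KC time, H2-DMa, H2-DMb1 and Ciita were lowest at 12 h after APAP. H2-Aa, H2-Ab1, H2-Eb1 and Cd74 were lowest at 36 h, and from 48 h on none of these genes passed against PBS. This order held in the second header run, with 1 library at 12 h, but not in the first. There H2-Aa, H2-Ab1, H2-Eb1 and Cd74 were lowest at 48 h (H2-Eb1 75.7 CPM, against 109.4 CPM at 36 h). H2-DMa and H2-DMb1 were lowest at 24 h in that run (H2-DMa 96.7 CPM, against 115.1 CPM at 12 h). Ciita was lowest at 6 h there, with 3.89 CPM against 3.95 CPM at 12 h. Against PBS, 7 of the 10 genes were lower at 36 h, where 26.2% of all tested genes differed and 10.5% were lower (edgeR quasi-likelihood test, Benjamini-Hochberg adjusted p below 0.05 over all 17080 genes). H2-Aa, H2-Ab1, H2-Eb1, H2-DMa, Cd74, Ciita and Cd40 made up the 7, and H2-DMb1, Cd80 and Cd86 did not pass. At 6 h, 2 of the 10 differed (15.1% of all genes), Cd80 higher (9.72% of all genes) and Ciita lower (5.42%). At 12 h, 4 differed (20.6%), Cd40 higher (12.5%) and Ciita, H2-DMa and H2-DMb1 lower (8.09%), and at 24 h 5 were lower, where 26.9% of all genes differed and 10.9% were lower.

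At 48, 72, 96, 120 and 168 h none of the 10 passed by edgeR, against 3.67%, 1.94%, 0.158%, 0.123% and 0.0351% of all genes. At those times 4, 5, 0, 1 and 1 of the 10 had an unadjusted p below 0.05, and DESeq2 called 4 at 48 h and 0 at the 4 later times. The shares of all genes at the unadjusted threshold and by DESeq2 are not at hand. These counts therefore cannot be set against all genes. At 72 h the log2 differences of H2-Aa, H2-Ab1, H2-Eb1 and Cd74 were -1.81, -1.74, -1.91 and -2.03 in the first header run, where they passed (edgeR adjusted p from 0.000744 to 0.00678), and -0.76, -0.64, -0.67 and -0.69 in the second, where they did not. All 10 genes, and 55.5% of all tested genes, differed among the 9 KC times in an F test over the times.

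**Figure D2:**
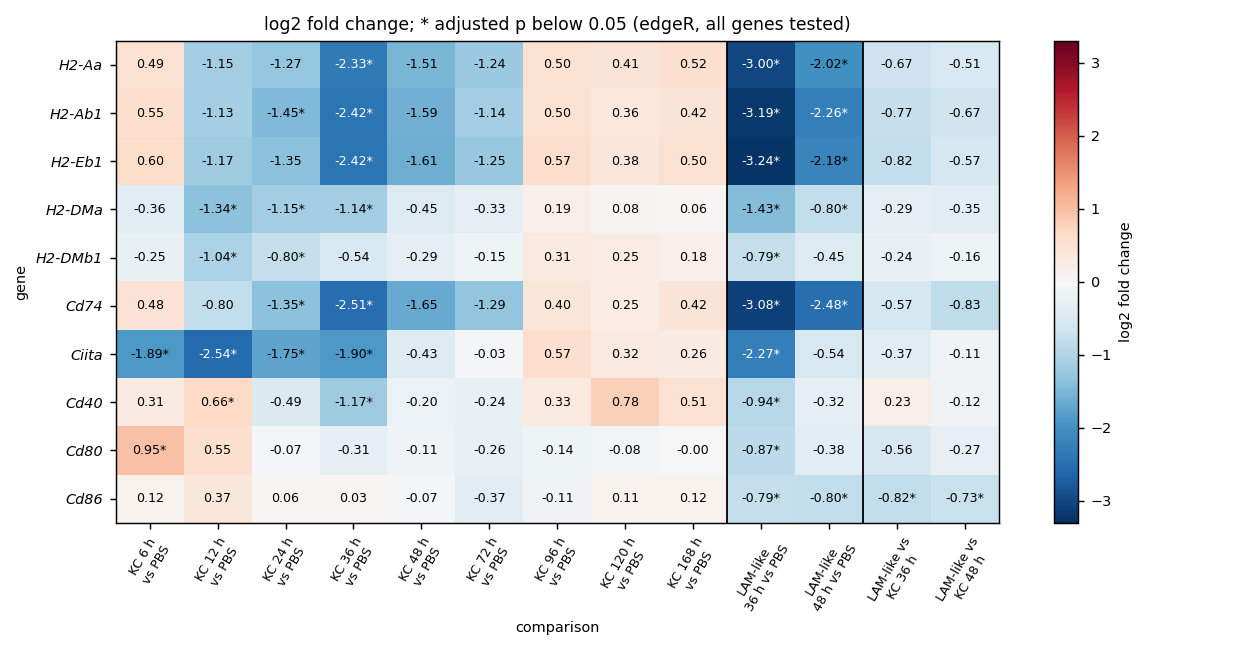
Fitted log2 fold change (colour and number) of each gene (rows) in each comparison (columns), with an asterisk where the adjusted p over all genes was below 0.05. The deepest values are those of H2-Aa, H2-Ab1, H2-Eb1 and Cd74 in LAM-like KCs at 36 h against PBS, from -3.00 to -3.24, and at 6 h Ciita is the 1 gene of the 10 that passed as lower.

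Ciita (chr16:10480059-10528418, plus strand, mm10) was lower than in PBS at 6, 12, 24 and 36 h. Its levels were 12.9 and 22.6 CPM in the PBS 0 h libraries and 54.4 and 21.03 CPM in the PBS 24 h libraries. They were 4.04, 3.74, 7.84 and 12.1 CPM at 6 h and 2.26, 3.39, 6.18 and 5.89 CPM at 12 h. At 24 h they were 3.74, 4.76, 10.0 and 12.1 CPM, and at 36 h 8.42, 6.997, 8.22 and 4.07 CPM. Every KC library from 6 to 36 h lay below every PBS library. The levels at 48 h were 12.6, 9.99, 18.5 and 35.9 CPM, and at 72 h 19.7, 27.8, 39.9 and 14.3 CPM, both overlapping PBS. From 96 to 168 h they ranged from 17.98 to 47.3 CPM.

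The fitted log2 differences of Ciita from PBS were -1.89 ± 0.54 at 6 h (SE, edgeR adjusted p = 0.0130), -2.54 ± 0.55 at 12 h (adjusted p = 0.000879), -1.75 ± 0.53 at 24 h (adjusted p = 0.0122) and -1.90 ± 0.53 at 36 h (adjusted p = 0.00666). The 12 h call held with any single library left out. The edgeR call at 6 h was lost without PBS 0 h library 2, PBS 24 h library 1 or 6 h library 1 (adjusted p from 0.0602 to 0.102), that at 24 h without PBS 0 h library 2, PBS 24 h library 1 or 24 h library 1 or 2 (0.0517 to 0.0908), and that at 36 h without PBS 24 h library 1 (0.0568). Within the first and second header runs the Ciita differences were -3.31 and -0.83 at 6 h, -3.29 and -1.59 at 12 h, -3.19 and -0.68 at 24 h and -2.29 and -1.52 at 36 h. In the second run, which holds 1 of the 12 h libraries, none of these passed. Against the PBS 0 h pair alone, only the 12 h call was kept. Ciita overlaps Dexi on the other strand, and the strand setting of the counting is not given in the sources used here.

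Of the 3 chain genes, which all lie on chromosome 17, H2-Ab1 (chr17:34257689-34269419, plus strand) had 860.3 and 1529 CPM at PBS 0 h and 2138 and 1081 CPM at PBS 24 h. Its levels were 2332, 1490.1, 1937 and 2385 CPM at 6 h, 488, 826, 681 and 543 CPM at 12 h, and 309, 235, 864 and 617 CPM at 24 h. At 36 h they were 245, 253, 388 and 149.8 CPM, below every PBS library. The 48 h libraries then spread from 169.9 and 178 CPM in libraries 1 and 2 to 511 and 979 CPM in libraries 3 and 4. Levels of 469, 518, 1148 and 389 CPM were found at 72 h, and 1495, 2420.1, 865 and 3056 CPM at 96 h. At 120 and 168 h all 8 libraries had between 1479 and 2320.3 CPM.

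H2-Ab1 at 6 h was thus at 145% of the PBS mean, a difference of 0.55 ± 0.52 log2 that did not pass (edgeR adjusted p = 0.525), while Ciita was at 25.03% of its own. The log2 differences of H2-Ab1 from PBS were -1.13 ± 0.52 at 12 h (adjusted p = 0.127), -1.45 ± 0.53 at 24 h (adjusted p = 0.0366) and -2.42 ± 0.54 at 36 h (adjusted p = 0.000830), the last with 18.5% of the PBS mean. The edgeR call at 24 h was lost without PBS 0 h library 2, PBS 24 h library 1, or 24 h library 1 or 2 (0.115 to 0.147). The 36 h difference of H2-Ab1 was -2.69 in the first header run and -2.15 in the second, with adjusted p = 4.76e-05 and 0.0484 by edgeR. The 24 h difference was -2.61 and -0.69 within the runs. At 12 h H2-Ab1 differed by -1.31 in the first run, where it passed (adjusted p = 0.00427 by edgeR), and by -1.14 in the second, where it did not. H2-Aa, H2-Eb1 and Cd74 also passed at 12 h in the first run, with -1.29, -1.43 and -0.98.

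H2-Aa (chr17:34282744-34287823, minus strand) had 215, 212, 343 and 115 CPM in KCs at 36 h, against 621 and 1322 CPM at PBS 0 h and 1656 and 878 CPM at PBS 24 h. The log2 difference was -2.33 ± 0.56 (edgeR adjusted p = 0.00166), with no overlap. It was -2.57 in the first header run and -2.08 in the second, where it did not pass (adjusted p = 0.0707 by edgeR). H2-Eb1 (chr17:34305867-34316674, plus strand) had 112, 106, 157 and 62.0 CPM in KCs at 36 h, against 300.5 and 630.2 CPM at PBS 0 h and 997 and 482 CPM at PBS 24 h, again with no overlap. Its log2 difference was -2.42 ± 0.57 (edgeR adjusted p = 0.00144), with -2.76 and -2.09 within the runs and adjusted p = 0.0739 in the second. H2-Eb1 overlaps Gm20513 on the other strand. Across the 48 libraries the log2 levels of the 3 chain genes had Pearson correlations of 0.9965 to 0.9979 with one another, a description over libraries that share groups.

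Cd74 (chr18:60803848-60812652, plus strand) had 3018 and 5577 CPM at PBS 0 h, 7812 and 4661 CPM at PBS 24 h, and 8711, 5941, 6642 and 7673 CPM at 6 h. At 12 h its levels were 2700.3, 3876, 3117 and 2162 CPM, and at 24 h 1549.8, 1049, 3296 and 2224 CPM. The 36 h libraries had 1052, 995, 1145 and 440.2 CPM, the lowest mean of the KC times and below every PBS library. Levels were 726, 686, 1608 and 3562 CPM at 48 h, where the first and second of these, from the first header run, lay below the 36 h libraries of that run, 1052 and 995 CPM. They were 1489, 1650.2, 3820.3 and 1499.8 CPM at 72 h, 5544, 8298, 3406 and 10047 CPM at 96 h, and from 5003 to 8029.8 CPM at 120 and 168 h.

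The log2 difference of Cd74 from PBS was 0.48 ± 0.50 at 6 h (edgeR adjusted p = 0.572), -1.35 ± 0.50 at 24 h (adjusted p = 0.0430) and -2.51 ± 0.52 at 36 h (adjusted p = 0.000358). KCs at 36 h held 17.2% of the PBS mean. The 24 h call was lost without PBS 0 h library 2, PBS 24 h library 1, or 24 h library 1, 2 or 4 (adjusted p from 0.0650 to 0.157 by edgeR), and it was -2.30 in the first header run and -0.64 in the second. The 36 h difference of Cd74 was -2.61 and -2.44 within the runs and passed in both.

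The calls in KCs at 48 h changed with the libraries and with the setting. With all 4 KC libraries the log2 differences from PBS were -1.51 ± 0.54 for H2-Aa, -1.59 ± 0.53 for H2-Ab1, -1.61 ± 0.56 for H2-Eb1 and -1.65 ± 0.51 for Cd74, and none passed (edgeR adjusted p from 0.0595 to 0.118). Without library 4 of KCs at 48 h, which had 3562 CPM of Cd74, all 4 genes passed, with differences of -2.18, -2.29, -2.26 and -2.37 and adjusted p from 0.00582 to 0.0218 by edgeR. Within the first header run, which holds libraries 1 and 2, they were -3.11, -3.23, -3.31 and -3.16 and passed. Within the second they were -0.62, -0.68, -0.59 and -0.73 and did not. With every library kept, all 4 genes passed by DESeq2 (adjusted p from 0.0179 to 0.0492). They passed too with the header runs as a covariate (edgeR adjusted p from 0.0289 to 0.0439).

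The H2-DM genes had a shallower course. H2-DMa (chr17:34119541-34139101, plus strand) had 97.7, 126, 122 and 115 CPM in KCs at 12 h, against 275 and 269 CPM at PBS 0 h and 372 and 254 CPM at PBS 24 h. Its levels at 36 h were 136, 129.9, 154 and 109 CPM. No library at 12, 24 or 36 h reached the PBS range. The log2 differences were -1.34 ± 0.26 at 12 h (edgeR adjusted p = 0.000187), -1.15 ± 0.26 at 24 h (adjusted p = 0.000760) and -1.14 ± 0.26 at 36 h (adjusted p = 0.000763), and each held with any single library left out. Within the header runs H2-DMa differed by -1.48 and -1.24 at 12 h, by -1.74 and -0.71 at 24 h, the second of these not past the threshold, and by -1.24 and -1.04 at 36 h. H2-DMa overlaps Brd2 on the other strand.

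H2-DMb1 (chr17:34153072-34160230, plus strand) had 79.3, 108, 101 and 100.3 CPM in KCs at 12 h, against 159.7 and 208 CPM at PBS 0 h and 280.4 and 153 CPM at PBS 24 h, with no overlap. The difference of -1.04 ± 0.29 log2 passed (edgeR adjusted p = 0.00880), though not without PBS 24 h library 1 (0.0861). At 24 h the difference was -0.80 ± 0.29 (adjusted p = 0.0370), a call lost without PBS 0 h library 2, PBS 24 h library 1, or 24 h library 1 or 2 (0.111 to 0.212 by edgeR), and at 36 h it was -0.54 ± 0.29 and did not pass. H2-DMb1 differed by -1.20 and -0.87 within the header runs at 12 h and by -1.46 and -0.30 at 24 h, and did not pass in the second run at either time. H2-DMb1 and H2-DMb2 are near copies, so reads may be split between them.

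**Figure D3:**
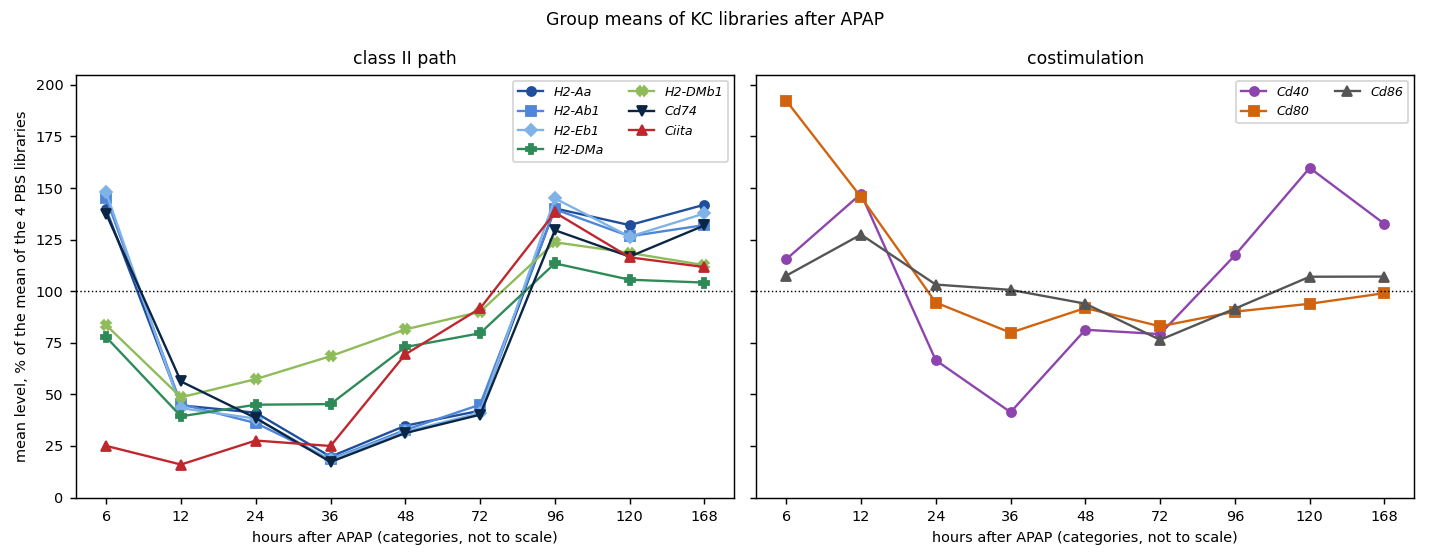
Mean level of each gene in KCs (y axis, percent of the mean of the 4 PBS libraries) at each time after APAP (x axis, in hours, as categories). Ciita is at 25.03% at 6 h and 91.6% at 72 h, while Cd74 is at 137% and 40.2% at the same times.

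The ratio of Cd74 to Ciita counts was high in KCs at 6 and 12 h and low from 36 to 72 h. For each Ciita count, the PBS libraries held 234 and 247 counts of Cd74 at 0 h and 144 and 222 at 24 h. It was 2158, 1589, 847 and 632 at 6 h and 1192, 1142, 504 and 367 at 12 h, above every PBS library. It was 125, 142, 139 and 108 at 36 h, 57.6, 68.7, 86.9 and 99.3 at 48 h and 75.6, 59.4, 95.8 and 105 at 72 h, below every PBS library. From 96 to 168 h it ranged from 137 to 278 and overlapped PBS. The ratio is taken within a library and does not depend on the scaling between libraries. It was looked at after the levels were known and carries no test.

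From 6 to 12 h the chain genes and Cd74 were lower in every 12 h library than in any 6 h library. H2-Ab1 passed barely in the test of 12 h against 6 h (-1.68 ± 0.53 log2, edgeR adjusted p = 0.0499) and did not with any 1 of the 8 libraries left out (0.0528 to 0.142). H2-DMa passed with -0.98 ± 0.26 (adjusted p = 0.0136), though not without library 1 of either time (0.0560 and 0.0567). H2-Aa with -1.64 ± 0.55 (adjusted p = 0.0649), H2-Eb1 with -1.77 ± 0.56 (adjusted p = 0.0512) and Cd74 with -1.29 ± 0.50 (adjusted p = 0.131) did not pass. Beside these 2 called genes, 6.09% of all genes differed and 3.64% were lower at 12 h. H2-Aa, H2-Ab1, H2-Eb1 and Cd74 differed by -1.36, -1.52, -1.51 and -1.18 in the first header run and by -2.12, -1.99, -2.27 and -1.73 in the second, where none passed.

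Between 36 and 96 h, 8 of the 10 genes rose in KCs, where 30.1% of all genes differed and 13% were higher at 96 h. H2-Ab1 was higher at 96 h by 2.92 ± 0.55 log2 (edgeR adjusted p = 8.26e-05), Cd74 by 2.91 ± 0.53 (adjusted p = 4.94e-05), Ciita by 2.46 ± 0.54 (adjusted p = 0.000496), H2-DMa by 1.32 ± 0.26 (adjusted p = 9.45e-05) and Cd40 by 1.505 ± 0.24 (adjusted p = 3.90e-06). H2-DMb1, higher by 0.85 ± 0.29 (adjusted p = 0.0223), lost its call without 36 h library 2 or 4 or 96 h library 4 (0.0552 to 0.114 by edgeR). The exceptions were Cd80 (0.17 ± 0.22) and Cd86 (-0.14 ± 0.15). This comparison and that of 12 h with 6 h were chosen after the levels had been seen. Within the header runs Cd74 differed by 2.77 and 3.09 and Ciita by 2.45 and 2.49.

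Cd40 (chr2:165055627-165072948, plus strand) reached its lowest levels in KCs at 36 h and varied with the header numbering at other times. KCs at 36 h had 14.98, 14.9, 15.999 and 16.6 CPM, against 46.1 and 56.6 CPM at PBS 0 h and 25.3 and 23.1 CPM at PBS 24 h. No 36 h library reached the PBS range. The log2 difference was -1.17 ± 0.24 (edgeR adjusted p = 0.000199), with -0.70 in the first header run and -1.65 in the second, both past the threshold. Against the PBS 24 h pair alone it was -0.63 and did not pass (adjusted p = 0.108).

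Cd40 at 12 h was 62.2, 71.0, 38.4 and 50.8 CPM, overlapping PBS, with a difference of 0.66 ± 0.23 log2 (edgeR adjusted p = 0.0390). That call was lost with any of 6 single libraries left out, namely each of the 4 PBS libraries and 12 h libraries 1 and 2 (0.0671 to 0.164). It was 1.21 in the first header run and -0.02 in the second. At 6 h Cd40 was 19.98 and 27.8 CPM in the libraries of the first run and 68.8 and 57.9 CPM in those of the second. The 2 PBS pairs differed by -1.08 ± 0.33 log2 (24 h minus 0 h, edgeR adjusted p = 0.498, 0.0527% of all genes called), so time after PBS and header run cannot be told apart there.

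Cd80 (chr16:38455561-38496335, plus strand) was highest at 6 h. KCs at 6 h had 89.5, 49.2, 36.1 and 28.6 CPM, against 23.1 and 22.8 CPM at PBS 0 h and 34.1 and 25.7 CPM at PBS 24 h. Libraries 1 to 3 lay above the PBS range and library 4 within it. The difference was 0.95 ± 0.22 log2 (edgeR adjusted p = 0.00185), and without library 1 it was 0.54 and did not pass (0.0622). Within the header runs Cd80 differed by 1.18 and 0.50, the second not past the threshold. Levels from 24 to 168 h ranged from 18.6 to 32.2 CPM in KCs, and none of those times passed.

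Cd86 (chr16:36603869-36666081, minus strand) did not pass against PBS at any KC time, with log2 differences from -0.37 ± 0.15 at 72 h to 0.37 ± 0.15 at 12 h. Both of these values crossed the threshold under other settings. With the header runs as a covariate Cd86 passed at 12 h (0.43, edgeR adjusted p = 0.00363) and at 72 h (-0.38, adjusted p = 0.0423). Within the first and second header runs Cd86 differed by 0.44 at 12 h in both, past the threshold in the second (adjusted p = 0.0597 and 0.0311 by edgeR), and by -0.40 at 72 h in both, past it in neither. In the 72 h group library 2, of the first run, had 287 CPM beside 429, 467 and 489 CPM. Library 2 and library 1 of that group held 16447 and 4874 CPM of summed hepatocyte markers, against 1541 to 2757 CPM in PBS libraries, and the part of this in the result was not tested. In 8 of the 11 APAP groups every library of the second header run was above every library of the first for Cd86. The 12 h group, among the 8, had 3 libraries in the first run and 1 in the second. In bulk samples, fewer cells of a type and less RNA per cell cannot be told apart, which applies to each level above.

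**Figure D4:**
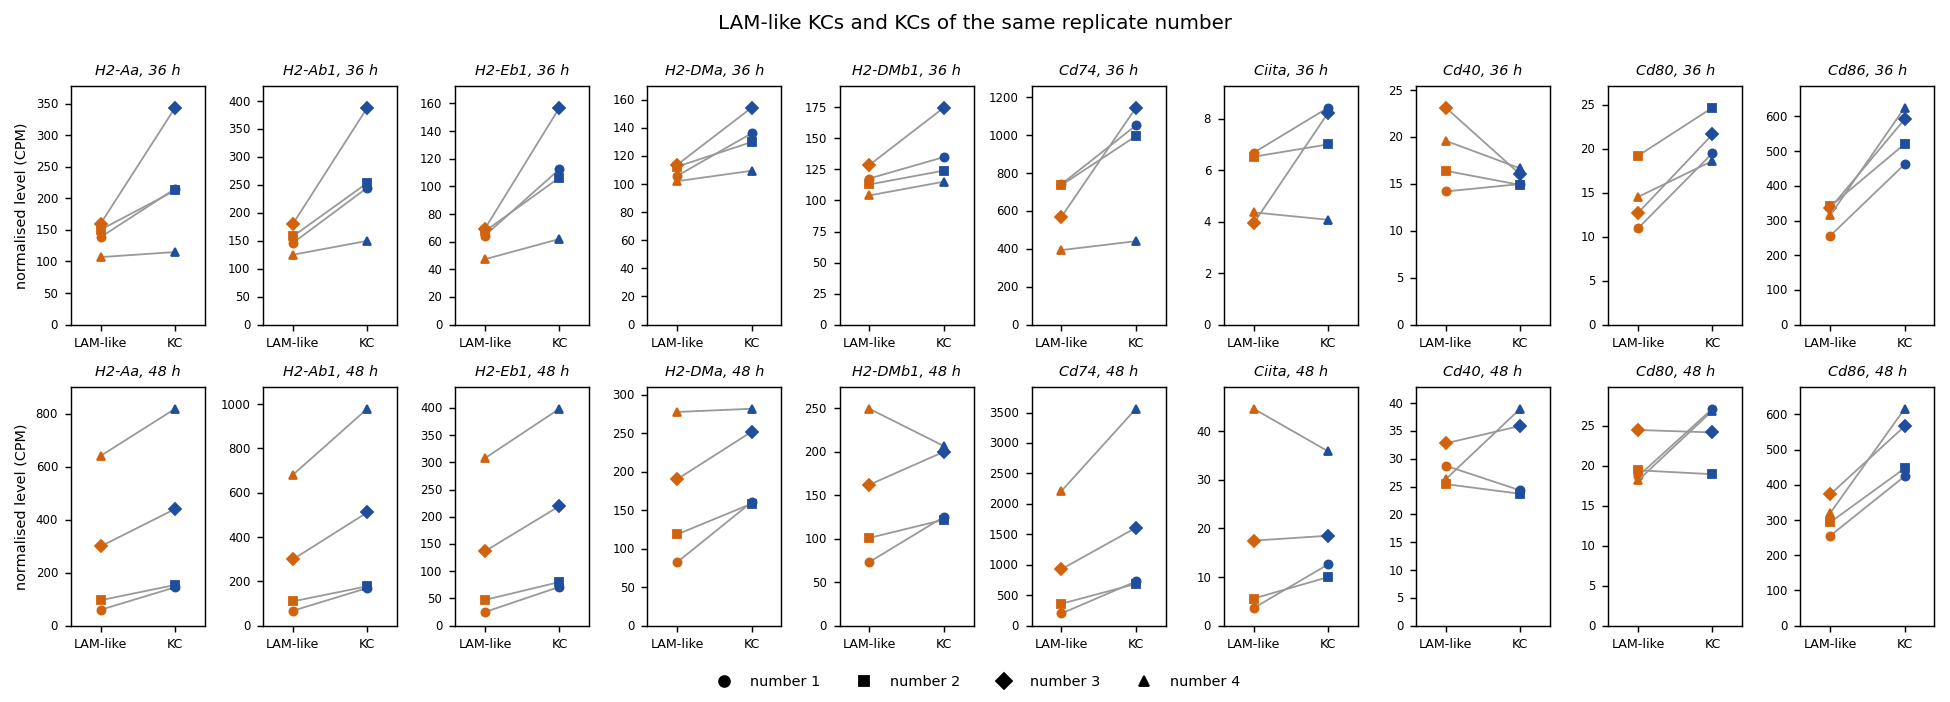
Normalised level (y axis, CPM, from 0) in LAM-like KCs (left) and KCs (right) at 36 h (upper row) and 48 h (lower row), 1 panel per gene, with lines joining libraries of the same replicate number. Cd86 is lower in LAM-like KCs in all 8 pairs, with 255 to 373 CPM against 424 to 625 CPM, and Cd74 is lower in all 8 pairs although its levels differ widely between numbers at 48 h.

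Cd86 was lower in LAM-like KCs than in KCs of the same time. At 36 h it had 256, 340.5, 335 and 315 CPM in LAM-like KCs, against 462, 521, 592 and 625 CPM in KCs. At 48 h it had 255, 293, 373 and 319.7 CPM in LAM-like KCs, against 424, 447, 566 and 616 CPM in KCs. The groups did not overlap at either time. The log2 differences were -0.82 ± 0.15 at 36 h (edgeR adjusted p = 0.000783) and -0.73 ± 0.15 at 48 h (adjusted p = 0.00416). Cd86 was the 1 gene of the 10 called at each time, where 1.89% and 2.51% of all genes were called and 1.11% and 1.37% were lower. Within the header runs Cd86 differed by -0.74 and -0.91 at 36 h, both past the threshold, and by -0.66 and -0.77 at 48 h, the first of these not past it (adjusted p = 0.0630). Leaving out both 48 h libraries numbered 4 gave -0.64 (adjusted p = 0.0588), while any single omission kept the call.

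H2-Aa, H2-Ab1, H2-Eb1, H2-DMa and Cd74 were also lower in the LAM-like library than in the KC library of the same number in 4 of 4 pairs at both times. H2-DMb1 was lower in 4 of 4 pairs at 36 h and 3 of 4 at 48 h, and Ciita in 3 of 4 at both. The share of all genes lower in 4 of 4 pairs is not at hand. H2-Aa, H2-Ab1, H2-Eb1 and Cd74 correlated at 0.986 to 0.9979 over the 48 libraries, so their pairs are not separate observations. H2-Ab1 had 146, 158, 180.0 and 125 CPM in LAM-like KCs at 36 h, against 245, 253, 388 and 149.8 CPM in KCs. At 48 h it had 67.1, 109.5, 299 and 680.5 CPM in LAM-like KCs, against 169.9, 178, 511 and 979 CPM in KCs. The groups overlapped at both times, yet the LAM-like library was the lower of each pair in 4 of 4 at both. Cd74 had 741, 736, 569 and 393 CPM in LAM-like KCs at 36 h, against 1052, 995, 1145 and 440.2 CPM in KCs, and at 48 h 200.01, 360.4, 929 and 2213 CPM in LAM-like KCs, against 726, 686, 1608 and 3562 CPM in KCs.

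Without a block the differences were -0.77 ± 0.52 and -0.67 ± 0.52 log2 for H2-Ab1 at 36 and 48 h and -0.57 ± 0.50 and -0.83 ± 0.50 for Cd74, and none passed (edgeR adjusted p from 0.483 to 0.729). With the replicate number as a block and the compared groups alone in the fit, an analysis added after the data were seen, 8 of the 10 genes were lower at 36 h and 5 at 48 h. In that fit 15.1% of all genes were called at 36 h and 8.37% were lower, and 11% were called at 48 h and 6.71% were lower. H2-Ab1 was then lower by -0.72 ± 0.11 at 36 h (adjusted p = 0.00171) and -0.85 ± 0.12 at 48 h (adjusted p = 0.00236), Cd74 by -0.54 ± 0.11 (adjusted p = 0.00722) and -1.08 ± 0.17 (adjusted p = 0.00375), and H2-Eb1 by -0.77 ± 0.11 (adjusted p = 0.00120) and -0.84 ± 0.15 (adjusted p = 0.00863). H2-Aa and Cd86 completed the 5 of 48 h, and at 36 h H2-DMa, H2-DMb1 and Cd80 passed as well. Ciita did not pass under the block, with -0.37 ± 0.22 at 36 h and -0.56 ± 0.30 at 48 h, nor did Cd40. With the same block but all 48 libraries in the fit, Cd86 alone passed at each time. Cd74 also passed at 48 h without LAM-like library 4 (-1.73, adjusted p = 0.0460 by edgeR, no block).

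The change of the LAM-like minus KC difference between 36 and 48 h did not pass for any of the 10, with values from -0.35 ± 0.33 for Cd40 to 0.29 ± 0.30 for Cd80 and 0.00585% of all genes called by edgeR. None of the 10 had an unadjusted p below 0.05 there, and DESeq2 called none, both without a share of all genes at hand.

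Against PBS, all 10 genes were lower in LAM-like KCs at 36 h, where 36.6% of all genes differed and 16.4% were lower. The call for Cd40 (-0.94 ± 0.24), whose libraries overlapped PBS, was lost against the PBS 24 h pair alone (-0.40, edgeR adjusted p = 0.2998). These comparisons share the PBS libraries with those of KCs. The LAM-like KC libraries of 36 h held 10.9% of the PBS mean of H2-Ab1 and 11.6% of that of Cd74, with log2 differences of -3.19 ± 0.56 (edgeR adjusted p = 2.20e-05) and -3.08 ± 0.54 (adjusted p = 1.82e-05). Cd80 with 10.9, 19.2, 12.7 and 14.5 CPM and Cd86, both called here, had not passed in KCs of that time (for Cd80, LAM-like KCs against KCs gave -0.56 ± 0.22, adjusted p = 0.2405), and H2-DMb1 with -0.79 ± 0.29 passed only until 1 of 5 libraries was left out (0.0530 to 0.204): PBS 0 h library 2, PBS 24 h library 1, or LAM-like library 1, 2 or 4. Cd80 differed by -0.87 ± 0.22 (adjusted p = 0.00146), with -1.004 and -0.76 within the header runs. H2-Ab1 differed by -3.42 and -2.97 and Cd74 by -3.10 and -3.16 within the runs.

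At 48 h 6 of the 10 were lower in LAM-like KCs than in PBS, where 20.7% of all genes differed and 9.53% were lower: H2-Aa, H2-Ab1, H2-Eb1, H2-DMa, Cd74 and Cd86. LAM-like library 4 lay within the PBS range for H2-Aa, H2-Eb1, H2-DMa, H2-DMb1 and Ciita, and below it for H2-Ab1 and Cd74. Its Ciita level of 44.6 CPM stood beside 3.62, 5.58 and 17.5 CPM in the other LAM-like libraries of 48 h. Without it H2-DMb1 (-0.84, edgeR adjusted p = 0.0331) and Ciita (-1.54, adjusted p = 0.0244) passed too, making 8. H2-Aa lost its call without PBS 0 h library 2 (0.0519) and H2-DMa without PBS 0 h library 1 or 2, PBS 24 h library 1, or LAM-like library 1 or 2 (0.0521 to 0.130). Within the header runs Cd74 differed by -4.49 and -1.45, H2-Ab1 by -4.20 and -1.28 and Ciita by -3.06 and 0.81, and in the second run none of these passed, whereas Cd86 differed by -0.77 and -0.86 and passed in both.

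Of the genes around this path, those of interferon gamma signalling to Ciita were lower in KCs at 36 h in 6 of 8 and higher in 0, where 10.5% of all genes were lower. Ifngr1, the ligand-binding receptor chain, was lower by 1.13 log2 units than in PBS (difference -1.13 ± 0.19, edgeR adjusted p = 1.69e-05), and the factor Irf1 differed by -0.83 ± 0.27 (adjusted p = 0.0201). The list's median log2 difference was -0.49, against 0.02 over all genes. At 12 h the list had 2 higher and 2 lower, where 20.6% of all genes differed, with the factor Irf8 at 0.52 ± 0.11 (adjusted p = 0.000815) and Ifngr1 at -0.65 ± 0.19 (adjusted p = 0.0107). At 6 h 0 of the 8 passed, where 15.1% of all genes differed and 5.42% were lower. In LAM-like KCs 7 of 8 were lower than in PBS at 36 h and 3 of 8 at 48 h, beside 16.4% and 9.53% of all genes.

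Of the 7 factors bound to the class II promoter, 0 were higher and 2 lower in KCs at 12 and at 36 h, where 8.09% and 10.5% of all genes were lower, and 5 of 7 differed among the 9 KC times, beside 55.5% of all genes. Rfxank, a subunit of the X box complex, was lower in KCs at 12, 24 and 36 h (-0.72 ± 0.19, -0.72 ± 0.19 and -0.54 ± 0.19 log2, edgeR adjusted p = 0.00502, 0.00325 and 0.0267). Creb1 was lower at 6, 12 and 36 h, with -0.59 ± 0.17 at 36 h (adjusted p = 0.00849). Rfx5, the DNA-binding subunit, passed in LAM-like KCs at 36 h, with -0.95 ± 0.29 (adjusted p = 0.00930). The list's medians in KCs from 6 to 36 h lay between -0.06 and 0.06, against 0.02 to 0.04 for all genes.

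Genes that make peptide or turn class II molecules over went both ways. Ctss, the protease that trims the invariant chain, was lower in KCs at 24, 36 and 48 h (-0.74 ± 0.16, -0.87 ± 0.17 and -0.65 ± 0.16 log2, edgeR adjusted p = 0.000677, 8.78e-05 and 0.0155). The ubiquitin ligase gene March1, whose product sends class II molecules to degradation, was lower at 24 and 36 h (-0.78 ± 0.21 and -0.59 ± 0.21, adjusted p = 0.00436 and 0.0307). Cd83, whose product opposes that ligase, was higher at 12 h by 3.22 ± 0.86 (adjusted p = 0.00601), with 391 to 2149 CPM in KCs at 12 h against 98.8 to 191 CPM in PBS libraries. Lgmn, an endosomal protease, was higher at 6, 12 and 24 h, with 0.60 ± 0.11 at 24 h (adjusted p = 9.01e-05). At 36 h the list had 0 of 7 higher and 4 lower, where 10.5% of all genes were lower.

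Other ligands that T cells read rose at 12 h in 6 of 9 tested, with 1 lower, where 12.5% of all genes were higher, and the list's median log2 difference was 1.45, against 0.02 for all genes. Cd274, which encodes the inhibitory ligand PD-L1, was higher by 1.97 ± 0.32 log2 (edgeR adjusted p = 2.30e-05), with 139 to 389 CPM in KCs at 12 h against 56.6 to 77.6 CPM in PBS libraries. Icam1, an adhesion ligand, was higher by 1.45 ± 0.28 (adjusted p = 0.000231). Vsir, which encodes the inhibitory protein VISTA, was lower from 12 to 48 h, with -1.05 ± 0.21 at 36 h (adjusted p = 0.000165). At 36 h this list had 0 higher and 1 lower. Of the 5 adaptors that carry the CD40 signal, Traf1 and Traf3 were higher and Traf5 lower at 12 h, and 0 passed at the other KC times. Without a block none of the 6 lists had a called gene between LAM-like KCs and KCs at 36 or 48 h by edgeR. With the replicate block and the compared groups alone, where 15.1% and 11% of all genes were called, the list of interferon gamma signalling had 1 higher and 2 lower of 8 at 36 h and 3 lower at 48 h, Ifngr1 and Irf1 being lower at both. In that fit the list of peptide making and turnover had 2 higher and 3 lower of 7 at 36 h and 1 lower, March1, at 48 h, and the list of other ligands had 2 higher and 2 lower of 9 at 36 h and 1 higher and 1 lower at 48 h. Creb1 was higher at 36 h and H2-DMb2 lower at 48 h, and 0 CD40 adaptors passed.

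Among all other genes with at least 10 CPM on average, those most like each member over the 48 libraries were named by Pearson correlation of log2(CPM + 1), as a description. For Cd74 they were the class I genes H2-K1 (0.96) and H2-D1 (0.94) and their light chain B2m (0.93). H2-Aa was nearest to B2m (0.93), H2-K1 (0.92) and Itgb7 (0.92), H2-Eb1 to the same 3 genes, and H2-Ab1 to B2m (0.94), H2-K1 (0.93) and Ctss (0.93). H2-DMa was nearest to Gm2a (0.93), Itm2b (0.92) and Fcgrt (0.92). H2-DMb1 was nearest to the interferon-inducible GTPase genes Tgtp2 (0.88), Iigp1 (0.87) and Irgm2 (0.86), and Ciita to Slc27a6 (0.90), Ganc (0.87) and Irgm2 (0.86).

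The costimulation genes had other neighbours. Cd40 was nearest to Cd300c2 (0.86), Csf3r (0.83) and P2rx4 (0.82), Cd80 to Cebpb, Birc3 and Rassf1 (0.86 each), and Cd86 to Treml4 (0.86), Fcna (0.84) and Siglece (0.82). Within the 10, Ciita correlated at 0.8607 and 0.8692 with H2-DMa and H2-DMb1, against 0.6338, 0.623 and 0.628 with H2-Aa, H2-Ab1 and H2-Eb1 and 0.5754 with Cd74. Cd80 correlated at -0.1244 with Ciita. The libraries behind these values share groups and header runs.

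In order of mean level over the 13 groups, LAM-like KCs at 36 h were lowest for H2-Aa, H2-Ab1, H2-Eb1, H2-DMa, Cd74 and Cd80. KCs at 12 h were lowest for H2-DMb1 and Ciita, KCs at 36 h for Cd40 and LAM-like KCs at 48 h for Cd86. The highest group was KCs at 6 h for H2-Ab1, H2-Eb1, Cd74 and Cd80, at 12 h for Cd86, at 96 h for H2-DMa, H2-DMb1 and Ciita, at 120 h for Cd40 and at 168 h for H2-Aa. Of the 12 pairs of neighbours in each order, the libraries overlapped in 11 for H2-Ab1, H2-DMa and Ciita and in 12 for each of the other genes.

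**Figure D5:**
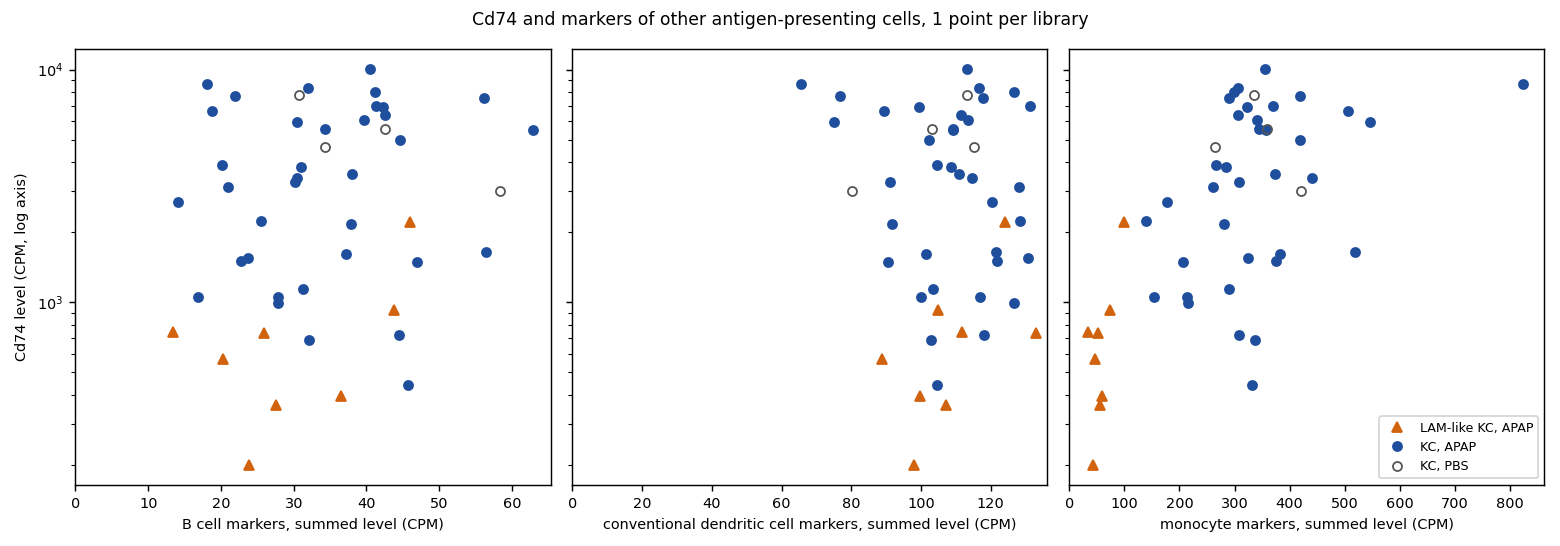
Level of Cd74 (y axis, CPM, log axis) against the summed level of B cell, conventional dendritic cell and monocyte markers (x axes, CPM), 1 point per library. Libraries of low and of high Cd74 overlap along the B cell and dendritic cell axes, and LAM-like KCs lie at the lowest monocyte sums.

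Markers of other cells that carry class II were measured in the same libraries. The 10 B cell markers summed to 27.8 to 45.8 CPM in KCs at 36 h against 30.7 to 58.4 CPM in PBS libraries, and 1 of the 10 was higher and 0 lower. The sum was 18.1 to 30.4 CPM in KCs at 6 h and 16.9 to 30.1 CPM at 24 h, below every PBS library, with 1 of the 10 lower at 6 h and 1 higher and 1 lower at 24 h. It was 13.4 to 36.5 CPM in LAM-like KCs at 36 h, with 1 lower than in PBS. Cd79b made up most of that sum, and Cd79a and Pax5 averaged 0.846 and 0.167 CPM over the 48 libraries, Pax5 being listed at 0 in 25 of them. The 10 conventional dendritic cell markers summed to 103 to 127 CPM in KCs at 36 h against 80.1 to 115 CPM in PBS libraries, with 1 higher and 0 lower. Of these Wdfy4 gave 89.6 CPM on average, Flt3 0.127 CPM with 25 libraries at 0, and Zbtb46 4.29 CPM.

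Monocyte markers moved with some of the groups. In KCs at 36 h their sum was 214 to 332 CPM, against 265 to 420.0 CPM in PBS libraries. LAM-like KCs had 33.6 to 58.8 CPM at 36 h and 42.96 to 99.5 CPM at 48 h, against 214 to 332 CPM and 308 to 383 CPM in KCs of the same times, with 3 and 2 of the 9 markers lower. KCs at 6 h had 418 to 823 CPM. Plac8 gave 189 CPM on average over the 48 libraries, Fn1 42.6 CPM and Ifitm6 35.2 CPM. Ccr2 gave 4.89 CPM, Ly6c2 0.154 CPM and Vcan 0.077 CPM. Of the 10 Kupffer cell identity markers, 1 was higher and 5 were lower in KCs at 36 h than in PBS, and 4 and 3 were lower in LAM-like KCs than in KCs at 36 and 48 h. The part of these 4 lists in the results above was not tested.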

How the data were processed

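The gene-level counts of 48 libraries were deposited by the authors as raw, not normalised, counts per gene. Per the submitters' processing notes the build was mm10 and the tools named are featureCounts 2.0.0, HISAT2 2.2.0, FastQC 0.11.9 and SAMtools 1.10; the strand setting and the annotation release are not given in the sources used here. Of the gene identifiers, 54183 (98.99%) were found in GENCODE M21, which gave positions and exon lengths. No count column was left unmapped (0). Totals ranged from 15885336 to 26058698 counts, and no 2 replicates agreed within sampling noise (lowest chi-square per degree of freedom 12.8).

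Counts were fitted with edgeR 4.0.16 in R 4.3.3 (filterByExpr, TMM, robust quasi-likelihood fit, 1 coefficient for each of 13 groups), and p-values were adjusted by Benjamini and Hochberg over 17080 genes, with 0.05 as threshold. The PBS control is the mean of the PBS 0 h and 24 h coefficients. The SE is the log2 fold change divided by the square root of F. Levels are CPM from the TMM-scaled library size. The fit was tested on simulated data. Alternatives were DESeq2 1.42.0, RLE scaling, no filter, replicate blocks, each PBS pair alone, the compared groups alone, each header run alone or as a covariate, and each library left out.

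All 10 genes are named in every comparison, pathway genes as examples from their lists, and for each member the 3 non-members with the highest correlation. The members and the lists were chosen with earlier results of these data known. LAM-like KC and KC libraries of the same replicate number deviated together from their group means. Their r ranged from 0.2899 to 0.4105 at 36 h and from 0.3528 to 0.5273 at 48 h. Libraries of different numbers gave r from -0.3306 to 0.2881 at 36 h and from -0.4155 to 0.2932 at 48 h. The labels state no pairing, and same-numbered libraries of a time also share a header run. The block therefore rests on the numbers alone, and pairing by animal is not established. Same-numbered KC libraries of different times gave r from -0.2018 to 0.407 (median 0.1051, 144 pairs), so not every pair exceeded 0.1. PBS 0 h replicates 1 and 2 of the labels carry the numbers 3 and 4 in the headers. Some genes of the pathway and marker lists are not reported here by name.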

Additional observations from a re-analysis of the deposited data

Results flagged for a closer look

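In 3 of 110 groups of 4 libraries, 1 library stood apart by Dixon's criterion; chance alone gives about 1 in 20. H2-Ab1 was 1148 CPM in library 3 of KCs at 72 h, beside 389, 469 and 518 CPM in the others. Cd74 was 3820.3 CPM in the same library, beside 1489, 1499.8 and 1650.2 CPM. Cd80 was 19.7 CPM in library 3 of KCs at 168 h, below the 27.6, 28.1 and 29.3 CPM of the others. At neither time did these genes pass against PBS.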

How the results depend on the processing

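Of 170 gene comparisons with a direction, 46 passed, 31 of these with every library left out in turn, and 21 also under every other alternative. Of those that had not passed, 44 did under some alternative. Among those past the threshold as reported or under the alternative, the direction turned in 1: Cd40 in KCs at 12 h against PBS, -0.01504 with the second header run alone. With values past it in neither included, 56 changed sign under some alternative. The causes were not tested. Ciita, the least abundant, had 41 counts in 1 library; the effect of depth was not tested.

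Counts of the 10 genes that moved by more than 1.5 times are given against the reported ones. Among these alternatives, the share of all genes called is at hand only for the block with compared groups alone (15.1% at 36 h and 11% at 48 h). The other counts, and those below with single libraries left out, therefore cannot be set against all genes. With no filter 2 passed at 24 h and 1 in 12 h against 6 h. The replicate block by label numbers, and header runs as a covariate, each gave 4 at 48 h and 1 at 72 h, and the block by header numbers 2 at 48 h. The compared groups alone gave 1 at 6 h, 9 at 12 h, 1 at 120 h, 2 in LAM-like KCs at 48 h against PBS, 1 between the PBS pairs and 5 in 12 h against 6 h. PBS 0 h alone gave 1 at 6 h, 2 at 12 h and 2 at 24 h, and PBS 24 h alone 1 at 6 h and 1 at 120 h. The first header run alone gave 8 at 12 h, 6 at 48 h, 5 at 72 h, 1 at 120 h, 1 at 168 h and 6 in 12 h against 6 h. The second alone gave 0 at 6 h, 2 at 12 h, 1 at 24 h, 4 at 36 h, 2 in LAM-like KCs at 48 h against PBS, 0 in 12 h against 6 h and 5 among all times. DESeq2 gave 4 at 48 h and 5 in 12 h against 6 h. RLE scaling moved no count so far. For LAM-like KCs against KCs the block with compared groups alone gave 8 at 36 h and 5 at 48 h, and leaving out both 48 h libraries numbered 4 gave 0 at 48 h.

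With single libraries left out the counts ranged from 0 to 2 at 6 h, 2 to 5 at 12 h, 1 to 7 at 24 h, 6 to 7 at 36 h and 0 to 4 at 48 h. They ranged from 9 to 10 and from 4 to 8 in LAM-like KCs against PBS at 36 and 48 h, from 1 to 2 in LAM-like KCs against KCs at 48 h, from 0 to 1 in 12 h against 6 h and from 7 to 8 in 96 h against 36 h.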
